A study of Mus musculus with 11 samples.

Results

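The alpha1 subunit of a voltage-gated calcium channel forms the calcium pore and carries the voltage sensor. The levels of 8 alpha1 genes, Cacna1a, Cacna1b, Cacna1c, Cacna1d, Cacna1e, Cacna1g, Cacna1h and Cacna1i, were measured in nuclei of mouse cortex. They were taken by symbol and are 8 of the 31053 genes counted. Cacna1a was selected on its CPM (counts scaled to a sum of 1e6), because its level in microglia was higher in mice with mutant tau than in mice without, and the family because its levels differed between kinds of neuron, so both patterns are given as descriptions, with no test.

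Nuclei were isolated from frozen cortex of 11 mice, 1 library per mouse, and sequenced with a droplet kit that captures transcripts at their 3′ end. The 4 non-transgenic mice (9.8 to 10.85 months old) carried the floxed Ikbkb allele or the floxed allele of active IKKβ but no Cre, and thus had normal IKKβ, a kinase upstream of NF-κB. The 3 P301S mice (9.15 to 10.75 months) had the same background plus the PS19 transgene, which drives human tau with the P301S mutation from a prion promoter and gives neurons tau deposits with age. The 2 knockout P301S mice (8.39 and 9.15 months, Ikbkb-/-) had floxed Ikbkb removed, and the 2 active IKKβ P301S mice (9.8 and 10.85 months, IkbkbCA) had a constitutively active IKKβ switched on from the Rosa locus, in each case by tamoxifen-induced CreERT2 placed in 1 allele of Cx3cr1. This driver acts in microglia and in other cells that use Cx3cr1. Every mouse received tamoxifen as a young adult, and the knockout and active mice alone had 1 Cx3cr1 allele replaced. Non-transgenic mice 1 and 2, P301S mice 1 and 2 and both knockout mice came from the floxed Ikbkb line, and the others from the active IKKβ line, so that knockout and active mice differed in line as well as in IKKβ. All mice are labelled female, although the methods name male mice for RNA sequencing without saying whether these nuclei are meant.

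High-voltage channels open on strong depolarization. Cacna1a (P/Q-type) and Cacna1b (N-type) trigger transmitter release at nerve terminals, Cacna1c and Cacna1d (L-type) act on cell bodies and dendrites and couple calcium entry to gene expression, and Cacna1e gives the R-type current. Cacna1g, Cacna1h and Cacna1i encode the T-type channels, which open near the resting potential and help neurons fire in bursts. High-voltage alpha1 subunits work with beta and alpha2delta subunits, which control their traffic and gating.

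The family split along the same line in its coding sequence. Each alpha1 subunit folds 4 repeats around the pore, and each repeat gives 1 acidic residue to the selectivity filter. The stretch of 27 bases around the filter codon of the fourth repeat is shown because it separates the high-voltage from the T-type members. It was read 5′ to 3′ on the coding strand from GENCODE M21 transcripts of GRCm38, and capitals mark the filter codon:
Cacna1a (exon 35, chr8:84611599-84611625, + strand): agcgccacaggaGAAgcgtggcacaac
Cacna1b (exon 36, chr2:24635213-24635239, - strand): agtgccactgggGAGgcctggcatgag
Cacna1c (exon 36, chr6:118614050-118614076, - strand): tgtgccaccggaGAGgcctggcaggac
Cacna1d (exon 36, chr14:30075944-30075970, - strand): tgtgcaacagggGAAgcctggcaggag
Cacna1e (exon 37, chr1:154425975-154426001, - strand): agtgccacggggGAGgcttggcaggag
Cacna1g (exon 32, chr11:94416415-94416441, - strand): gtctccactggtGACaactggaatggt
Cacna1h (exon 31, chr17:25377771-25377797, - strand): gtgtccactgggGACaactggaatggg
Cacna1i (exon 31, chr15:80388485-80388511, + strand): gtctccacaggcGATaactggaatggg

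The 5 high-voltage members carried GAA or GAG, codons for glutamate, and the 3 T-type members GAC or GAT, codons for aspartate. Within the high-voltage members 19 to 24 of the 27 bases were identical between any pair, within the T-type members 23 to 24, and between the classes 12 to 18. The same codon classes separated the members in the third repeat, where pairs of different class shared 11 to 15 of 27 bases. The genes themselves differed widely in length, from 59.5 kb for Cacna1h (chr17:25374285-25433783) and 65.8 kb for Cacna1g (chr11:94408391-94474198) to 609 kb for Cacna1c (chr6:118587240-119196418). Cacna1a covers 252 kb (chr8:84388440-84640246), Cacna1b 159 kb (chr2:24603887-24763152), Cacna1d 452 kb (chr14:30039939-30491455), Cacna1e 494 kb (chr1:154390731-154884501) and Cacna1i 111 kb (chr15:80287238-80398279). Since unspliced RNA was counted as well, long genes can collect more counts, and mean levels of different genes were therefore compared per 100 kb of gene. Shares of nuclei with a UMI were not scaled to length.

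Each library had between 7500 and 12315 barcodes, with a sum of 72007219 to 93205362 UMIs (molecular tags, 1 for each captured RNA molecule). After filtering, 103065 nuclei were used. They fell into 19 clusters, and the neurons into 28 sub-clusters, made without the calcium channel genes. Of these, 22 groups are described here, 7 non-neuronal types and 15 neuronal sub-clusters, each called "like" a type from its markers. A further 8 sub-clusters of 500 or more nuclei (22902 neuronal nuclei in all) stayed unnamed and 5 were smaller, and both kinds are not among the types described. Although the tissue is labelled cortex, 2 neuronal sub-clusters carried markers of striatal neurons. The 4496 microglia-like nuclei had all 9 microglial markers raised. Ikbkb itself stood at 110 and 113 CPM (taken over all UMIs of the mouse and type) in microglia-like nuclei of knockout mice against 123 to 154 CPM in the 7 mice without Cre, but 3′ counts need not cover the deleted exon, so this checks nothing. Libraries shared 14 to 44 barcode sequences per pair. Of all passed nuclei, 3127 had a barcode that another library also held. Non-transgenic mouse 4 stood apart from the other 3 of its group for several members and is given where that touches a result.

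Cacna1a was high in nearly all kinds of neuron described and low in 1 of them. In Pvalb-like interneurons it averaged 1524 ± 198 CPM (SD, n = 11 mice; lowest 1284, highest 1857). Near-projecting-like neurons held 1505 ± 124 CPM, a level that overlapped with the first. Next came the pair of layer 4/5 intratelencephalic (IT)-like sub-clusters, numbered 8 and 4, at 1370 ± 142 and 1346 ± 144 CPM, and Sst-like interneurons at 1311 ± 143 CPM. Vip-like interneurons sat lower, at 554 ± 65.9 CPM, and did not overlap with the Pvalb-like range, since their highest mouse stood at 673 CPM. No step between neighbours in the order of 22 types was free of overlap for Cacna1a (0 of 21).

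**Figure D1:**
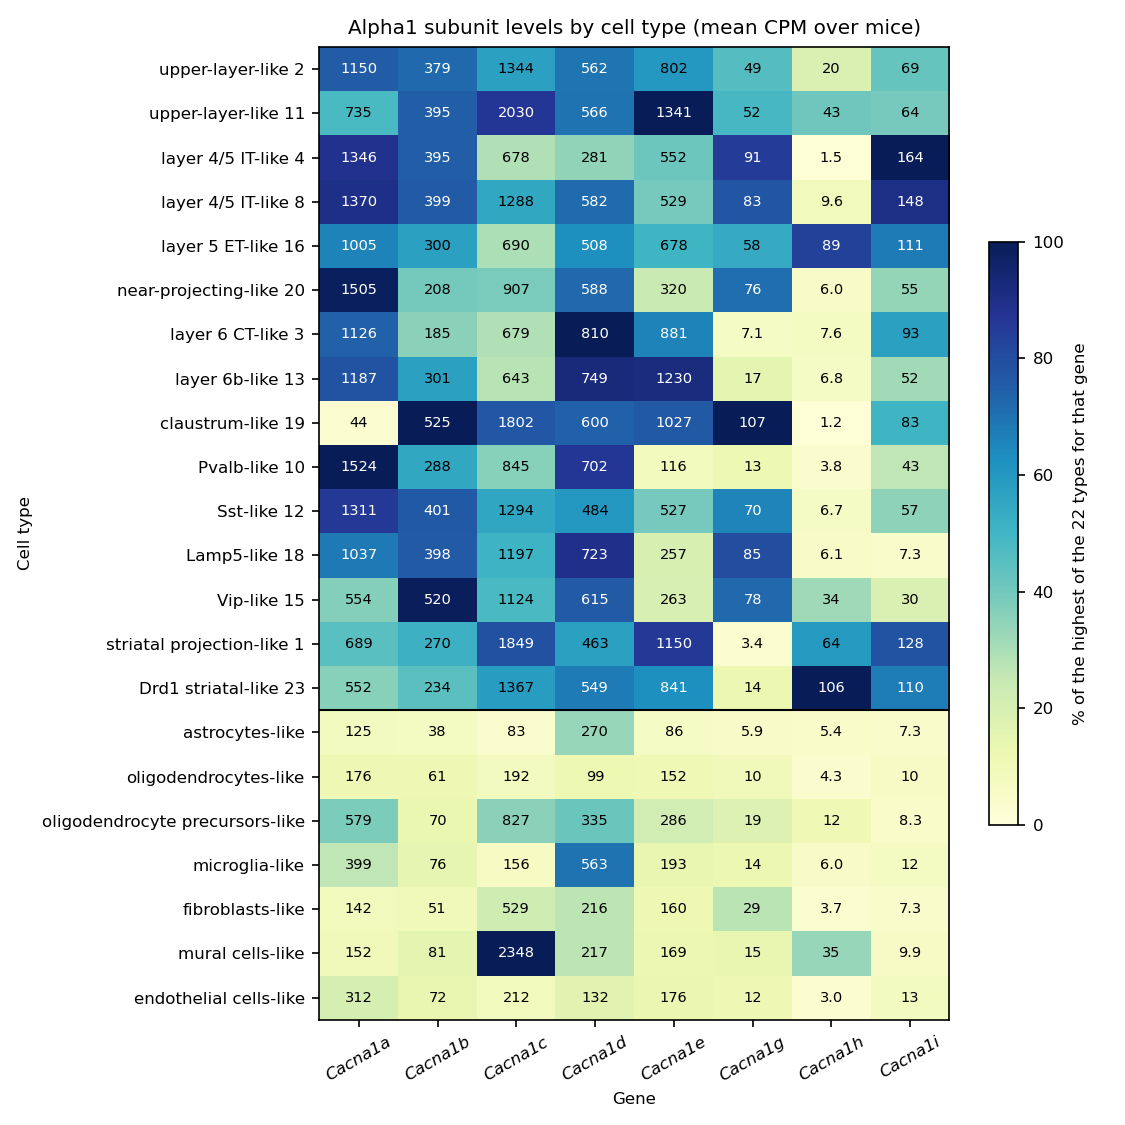
Mean level of each of the 8 alpha1 genes (columns) in 22 cell types (rows, neurons above the line), with the mean CPM over mice printed in each cell and the colour giving it as a percent of the gene's highest type. Cacna1a is lowest in claustrum-like neurons (43.7 CPM), Cacna1c highest in mural cell-like nuclei (2348 CPM), and Cacna1g nearly missing from striatal projection-like neurons (3.39 CPM).

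The exception was a sub-cluster of 937 claustrum-like neurons with 5 of 6 claustral markers raised (Nr4a2, Ntng2, Gnb4, Synpr and Nr2f2). Cacna1a stood there at 43.7 ± 21.9 CPM (n = 11), from 499 UMIs in all. By mouse it was 29.5, 24.3, 42.4 and 57.9 CPM in non-transgenic mice, 24.7, 28.5 and 34.3 CPM in P301S mice, 55.5 and 89.0 CPM in knockout P301S mice and 23.7 and 70.6 CPM in active IKKβ P301S mice. Within each mouse the next lowest of the 15 neuronal sub-clusters lay 4.18 to 21.6 times higher (median 15.9). Even the 7 non-neuronal types held more Cacna1a in CPM than claustrum-like neurons in each of the 11 mice. Their sums also held 20 transcripts listed as neuronal, taken up below, at means of 17758 to 46089 CPM. The highest mean was that of oligodendrocyte precursor-like nuclei. Whether the non-neuronal types make some of these transcripts themselves was not tested. How much of the Cacna1a in the 7 types is neuronal RNA was not tested either. The claustrum-like nuclei had a median of 12653 UMIs. The 929 nuclei of the broad cluster with the same leading genes all lay within the 937 and gave 43.3 CPM.

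Several other members were high in the same nuclei, but Cacna1h, at 1.19 CPM, had its lowest mean of the 15 neuronal sub-clusters there. Claustrum-like neurons were the highest of the 22 types for Cacna1b (525 ± 39.6 CPM) and Cacna1g (107 ± 28.0 CPM), and ranked the fourth for Cacna1c (1802 ± 177 CPM) and Cacna1e (1027 ± 97.5 CPM). The 8 members summed to 4189 CPM there, the fifth highest of 22 types. Per length, Cacna1a made up 1.40% of the family in claustrum-like neurons (lowest mouse 0.709%, highest 2.86%) against 51.6% in Pvalb-like interneurons (47.8% to 55.9%), while Cacna1b made up 27.0%. Gm16183, an antisense gene inside Cacna1a, followed the same pattern, with 1.04 CPM in claustrum-like neurons. Reads of the pair are uncertain, since the counting is not stated to use strand.

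**Figure D2:**
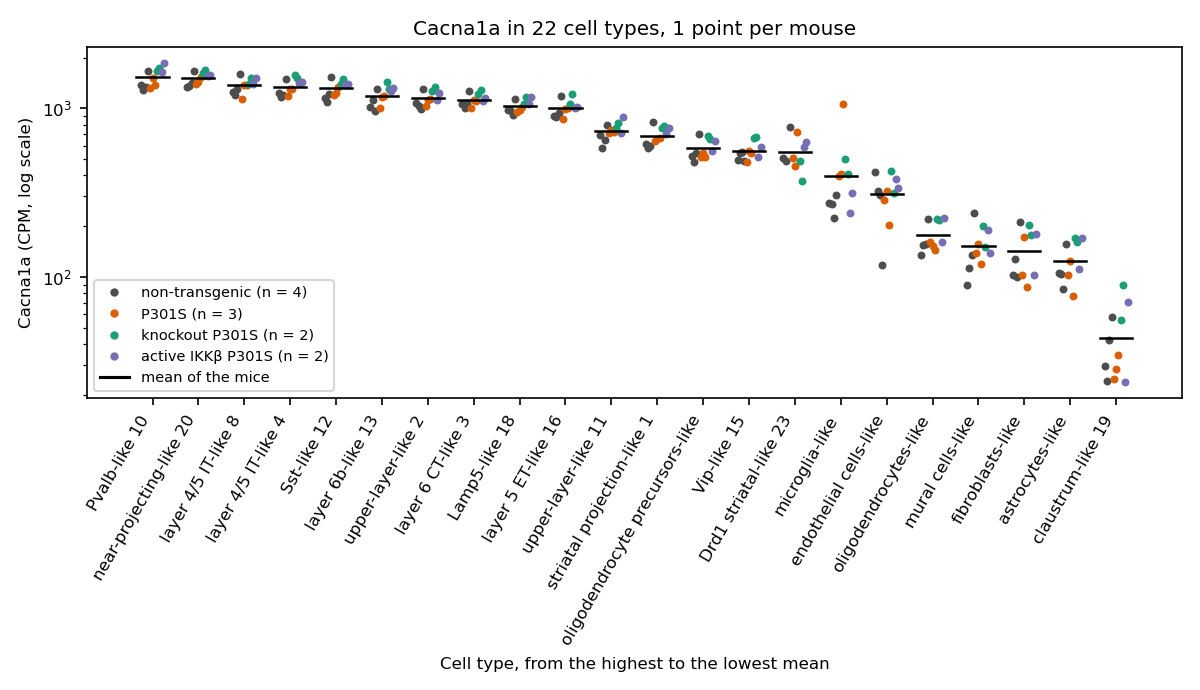
Cacna1a level in CPM, on a log scale, in 22 cell types ordered by mean, with 1 point per mouse coloured by group and a bar at the mean. Claustrum-like neurons lie at the far right, between 23.7 and 89.0 CPM, below each other type in every mouse.

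Cacna1b, the N-type subunit, was even among the neurons described. Over the 15 neuronal sub-clusters its highest and lowest means differed 2.83-fold, the smallest such ratio of the 8 members. By the SD of the 15 means over their average, Cacna1d was more even, at 0.222 against 0.296 for Cacna1b. Vip-like interneurons held 520 ± 42.6 CPM, a level that overlapped with the 525 CPM of claustrum-like neurons, and Sst-like interneurons, at 401 ± 28.1 CPM, reached the lower end of the Vip-like range. The lowest neurons were layer 6 corticothalamic (CT)-like, at 185 ± 8.58 CPM (175 to 203). Below them came a step without overlap, 2.29-fold, to mural cell-like nuclei at 81.0 ± 22.6 CPM, so that Cacna1b separated the 15 neuronal sub-clusters from the 7 other types. The unnamed sub-cluster 17, at 106 CPM, lay below all 15 in its mean. Astrocyte-like nuclei had the lowest level, 38.5 ± 7.62 CPM.

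Of the L-type subunits, Cacna1c was highest, among the 22 types described, in mural cells. The unnamed neuronal sub-cluster 17, which is not among them, held 4351 CPM. Mural cell-like nuclei, the smooth muscle cells and pericytes of vessels in which this channel drives contraction, held 2348 ± 263 CPM (1978 to 2706), where Cacna1c made up 57.9% of the family per length. Among neurons, upper-layer-like sub-cluster 11 held 2030 ± 320 CPM, striatal projection-like neurons 1849 ± 263 CPM and claustrum-like neurons 1802 ± 177 CPM, and all overlapped. At the other end, layer 6b-like neurons held 643 ± 47.0 CPM. Oligodendrocyte precursor-like nuclei, at 827 ± 61.9 CPM, lay within the neuronal range. The clear step, 2.49-fold, separated fibroblast-like nuclei (529 ± 89.4 CPM) from endothelial cell-like nuclei (212 ± 89.9 CPM), and astrocyte-like nuclei held 83.2 ± 16.5 CPM.

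Cacna1d, the L-type subunit that opens at less strong depolarization, was highest in deep-layer neurons among the 22 types described, while the unnamed sub-cluster 17 held 1467 CPM. Layer 6 CT-like neurons held 810 ± 51.7 CPM (717 to 883) and layer 6b-like neurons 749 ± 62.7 CPM, which overlapped with Lamp5-like (723 ± 53.9 CPM) and Pvalb-like interneurons (702 ± 37.2 CPM). Microglia-like nuclei stood in the middle of the neurons, the tenth of 22, at 563 ± 94.5 CPM (447 to 751). A step without overlap, 1.38-fold, lay between striatal projection-like neurons (463 ± 40.4 CPM) and oligodendrocyte precursor-like nuclei (335 ± 30.4 CPM). The layer 4/5 IT-like sub-clusters parted for this gene, with 582 ± 30 CPM in sub-cluster 8 and 281 ± 39.6 CPM in sub-cluster 4.

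Cacna1e, the R-type subunit, was low in the interneurons richest in Cacna1a. Pvalb-like interneurons held 116 ± 22.4 CPM (91.0 to 162), the lowest of the 15 neuronal sub-clusters and below the mean of the oligodendrocyte-like nuclei (152 ± 19.4 CPM), with which they overlapped. Upper-layer-like sub-cluster 11 held 1341 ± 189 CPM, 11.6 times as much. Layer 6b-like neurons at 1230 ± 72.2 CPM, striatal projection-like neurons at 1150 ± 34.4 CPM and claustrum-like neurons at 1027 ± 97.5 CPM followed. The order had 3 steps without overlap, at 1.18-fold below upper-layer-like sub-cluster 2 (802 ± 34.0 CPM), 1.23-fold below layer 5 extratelencephalic (ET)-like neurons (678 ± 43.0 CPM) and 1.65-fold below Sst-like interneurons (527 ± 33.5 CPM). Vip-like and Lamp5-like interneurons overlapped, at 263 ± 32.9 and 257 ± 14.6 CPM.

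The T-type genes each had their highest mean in a different sub-cluster, although the sets of neurons rich in them partly overlapped. Cacna1g was highest in claustrum-like neurons, at 107 CPM (66.2 to 166), and overlapped there with layer 4/5 IT-like sub-cluster 4 at 91.2 ± 15.2 CPM and Lamp5-like interneurons at 85.4 ± 21 CPM. It was low in layer 6 CT-like neurons (7.09 ± 1.67 CPM) and lowest in striatal projection-like neurons (3.39 ± 1.02 CPM; 1.56 to 5.02). Cacna1h was high in both striatal sub-clusters, with 106 ± 17.9 CPM in Drd1 striatal-like neurons (the 10 mice with at least 10 nuclei) and 63.5 ± 11.7 CPM in striatal projection-like neurons. Layer 5 ET-like neurons, at 88.6 ± 23.4 CPM (61.3 to 128), overlapped with both. In claustrum-like neurons and layer 4/5 IT-like sub-cluster 4, Cacna1h stood at 1.19 ± 0.952 and 1.48 ± 0.538 CPM, and in the first of these it rested on 16 UMIs.

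Cacna1i was highest in layer 4/5 IT-like sub-clusters 4 and 8, at 164 ± 29.2 CPM (126 to 217) and 148 ± 27.8 CPM, which overlapped. Striatal projection-like neurons held 128 ± 19.3 CPM. Drd1 striatal-like neurons averaged 110 CPM but ran from 13.9 to 280 CPM between mice. Lamp5-like interneurons, rich in Cacna1g, held only 7.31 ± 3.06 CPM of Cacna1i, within the range of the glia. Across the 15 neuronal sub-clusters the highest and lowest means differed 31.6-fold for Cacna1g, 89.2-fold for Cacna1h and 22.4-fold for Cacna1i. For the high-voltage members the same ratio was 34.9 for Cacna1a, 2.83 for Cacna1b, 3.16 for Cacna1c, 2.89 for Cacna1d and 11.6 for Cacna1e. None of the 3 T-type genes had a step without overlap between neighbours (0 of 21 each).

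**Figure D3:**
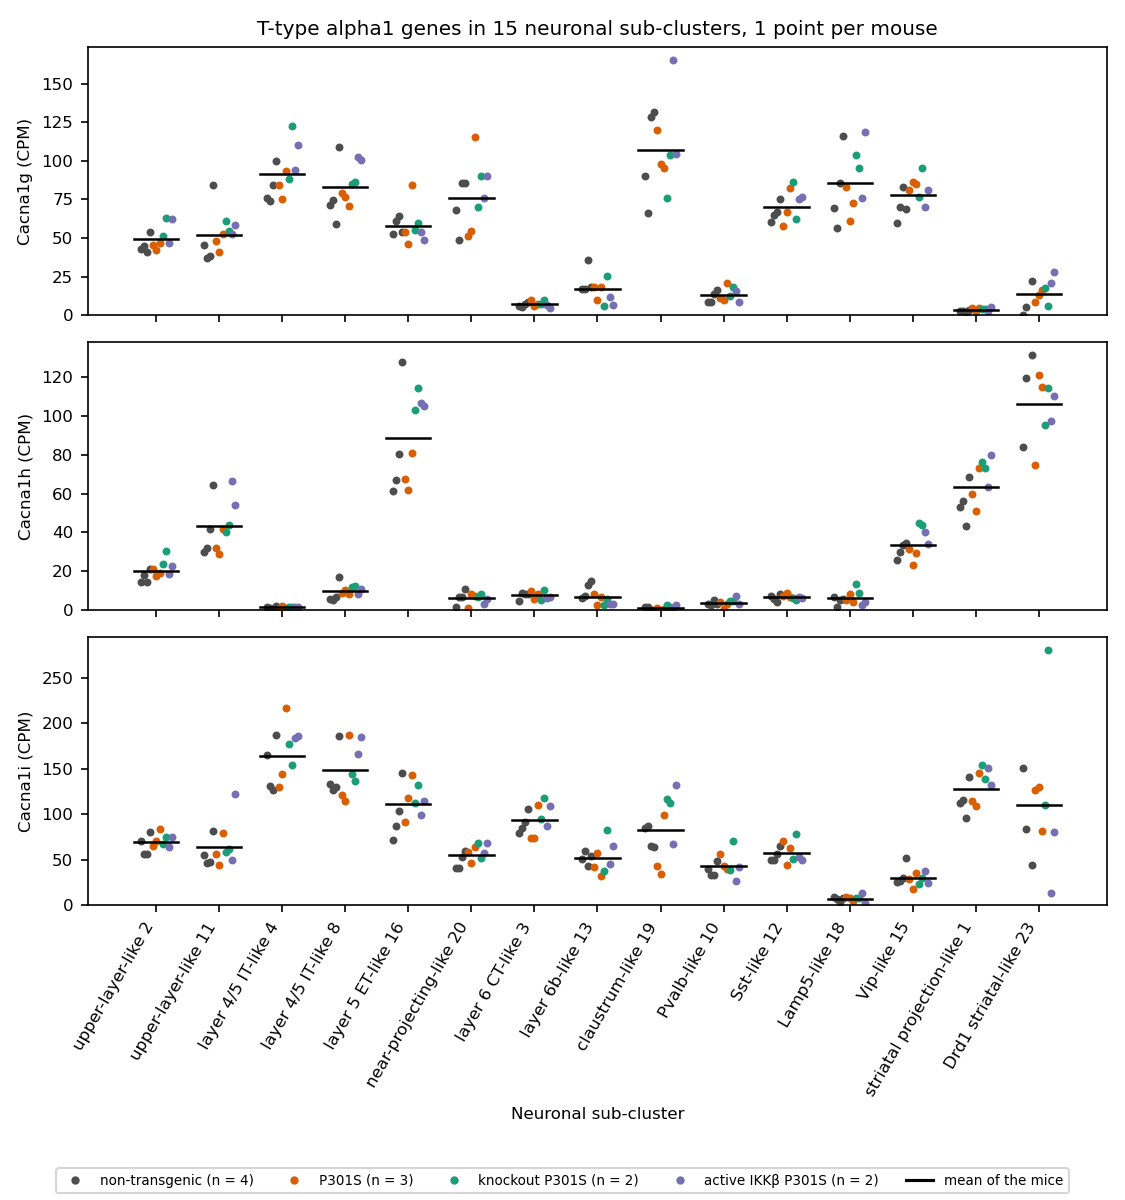
Levels of Cacna1g, Cacna1h and Cacna1i in CPM in 15 neuronal sub-clusters, with 1 point per mouse coloured by group and a bar at the mean over mice. Cacna1g is lowest in striatal projection-like neurons (mean 3.39 CPM), where Cacna1h stands at 63.5 CPM and Cacna1i at 128 CPM.

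Per length, Cacna1a was the leading member in both main classes of neuron. In excitatory neuron-like nuclei it stood at 435 CPM per 100 kb, followed by Cacna1b at 224, Cacna1c at 177, Cacna1e at 174 and Cacna1d at 131. The T-type genes were lower there, with 86.7 for Cacna1g, 83.5 for Cacna1i and 25.1 CPM per 100 kb for Cacna1h. In inhibitory neuron-like nuclei Cacna1a stood at 493 CPM per 100 kb and Cacna1e at 47.9. Over the 22 types the summed CPM of the 8 members ran from 621 in astrocyte-like nuclei to 5226 in upper-layer-like sub-cluster 11, and was 1420 in microglia-like and 3026 in mural cell-like nuclei. Over the means of the 22 types, Cacna1e and Cacna1i were most alike (Pearson r = 0.785) and Cacna1g and Cacna1h least (r = -0.149), all from the same libraries. The genes closest to each member over these 22 means, of log2(CPM + 1), were Fam135b for Cacna1a (r = 0.853, after its antisense neighbour Gm16183 at 0.981), Cnnm1 for Cacna1b (0.964), Tmem191c for Cacna1c (0.847), Chid1 and Prkce for Cacna1d (both 0.889), Lrrc7 for Cacna1e (0.926), Bean1 for Cacna1g (0.811), Gm26604 for Cacna1h (0.859) and Rab15 for Cacna1i (0.919).

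The glial sums also held transcripts listed as neuronal, and whether glia make some of these themselves was not tested. Each member was set against the summed level of 20 such neuronal transcripts in the same nuclei, scaled to 1 in the pooled neurons. Cacna1d in microglia-like nuclei stood at 3.34 on this scale (2.63 to 5.03) and was above 1 in 11 of 11 mice. In astrocyte-like nuclei Cacna1d stood at 1.91 (1.68 to 2.25), again above 1 in 11 of 11 mice. Cacna1c in mural cell-like nuclei reached 6.94 (5.08 to 8.45). Cacna1h in the same nuclei averaged 6.0, but from only 0 to 11 UMIs per mouse. Cacna1a in microglia-like nuclei averaged 1.36 but ran from 0.719 to 4.39 and was above 1 in 5 of 11 mice. In oligodendrocyte-like nuclei the mean of each of the 8 members was under 1.

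In microglia-like nuclei the largest shares of nuclei with a UMI, which are not scaled to gene length, were those of Cacna1d and Cacna1a. Thinned to 1000 UMIs per nucleus (4438 of 4496 nuclei, median 2056 UMIs before), 39.5% of them held a Cacna1d UMI and 28.5% a Cacna1a UMI, against 59.8% and 45.6% without thinning. Oligodendrocyte-like nuclei, of like depth (median 2368.5 UMIs), gave 9.59% for Cacna1d and 16% for Cacna1a after thinning, and 21% and 32.8% before. Cacna1e was found in 16.8% of microglia-like nuclei after thinning, Cacna1c in 13.6% and Cacna1b in 7.96%. The T-type genes stood at 1.37% for Cacna1g, 0.736% for Cacna1h and 1.06% for Cacna1i. Per length, Cacna1a made up 34.5% of the family in microglia-like nuclei (25.1% to 59.1%) and Cacna1d 29.2%.

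The contrast that led to the choice of Cacna1a is described first. In microglia-like nuclei it stood at 275, 269, 224 and 305 CPM in non-transgenic mice, 395, 405 and 1055 CPM in P301S mice, 499 and 407 CPM in knockout P301S mice and 240 and 315 CPM in active IKKβ P301S mice. All P301S mice lay above all non-transgenic mice, and P301S mouse 3 stood far above the others of its group, on 1572 UMIs in 730 nuclei. The edgeR log2 fold change of P301S over non-transgenic mice was 1.23, and 0.58 without P301S mouse 3. That of active IKKβ P301S over P301S mice was -1.21, and -0.57 without that mouse. Under the same pair of contrasts the summed neuronal transcripts of microglia-like nuclei averaged 25867 CPM without the transgene and 22461 CPM in P301S mice. They averaged 27756 CPM in the knockout and 22244 CPM in the active group. P301S and non-transgenic mice overlapped, with 25929 CPM in P301S mouse 1 against 23941 and 23771 CPM in non-transgenic mice 1 and 2. P301S mouse 3 was the lowest, at 19050 CPM.

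The other members did not share this order. Cacna1d stood at 447, 551, 497 and 563 CPM in non-transgenic and 447, 582 and 751 CPM in P301S mice, with a log2 fold change of 0.21, and the groups overlapped. Cacna1e, at 174, 178, 190 and 223 against 191, 176 and 156 CPM, had -0.18, and Cacna1b had -0.30. Cacna1c, whose highest value was the 300.8 CPM of non-transgenic mouse 4, had -0.46. Cacna1g and Cacna1i had -0.35 and -0.13, from a few UMIs per mouse.

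**Figure D4:**
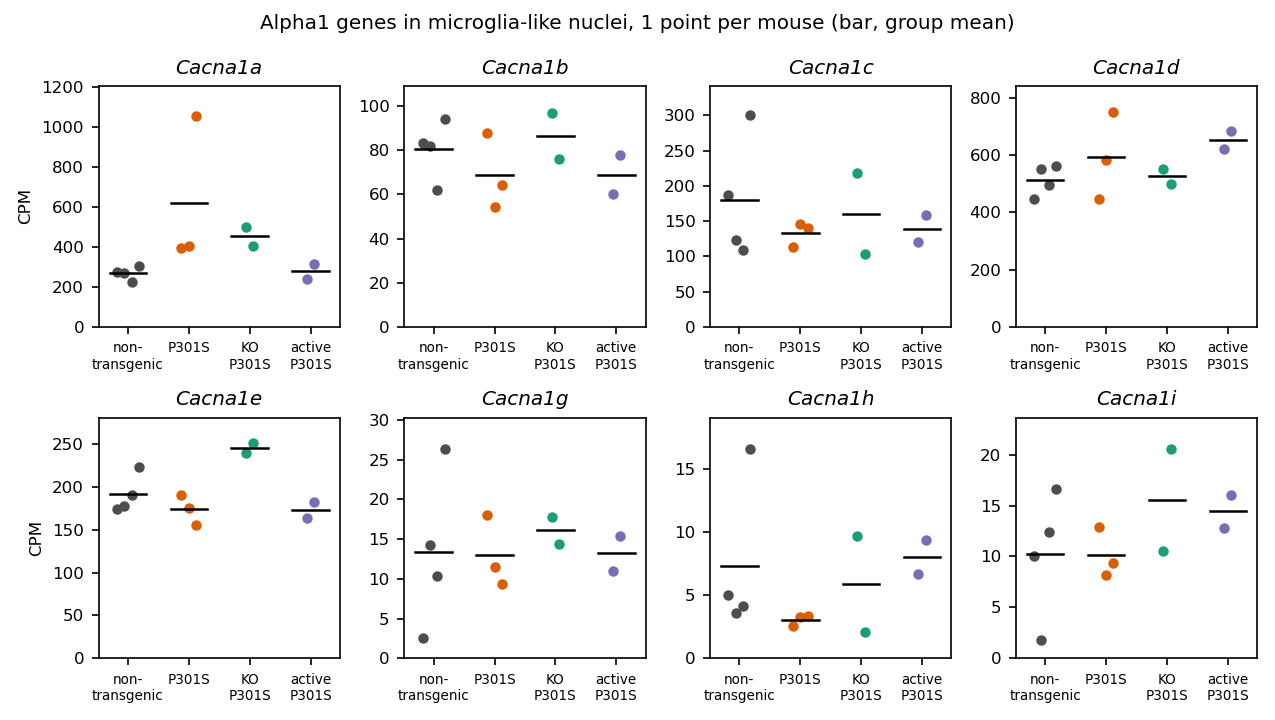
Level in CPM of the alpha1 genes in microglia-like nuclei of 11 mice, 1 point per mouse with a bar at the group mean, for non-transgenic, P301S, knockout P301S (KO P301S) and active IKKβ P301S (active P301S) mice. Cacna1a lies between 224 and 305 CPM in the 4 non-transgenic mice and at 395, 405 and 1055 CPM in the 3 P301S mice, while the groups overlap for Cacna1d.

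Cacna1a was chosen for a difference between mice with and without mutant tau, and the knockout and active groups both carry it. Whether these 4 mice entered the choice is not stated. The difference between the knockout and active groups was tested. Cacna1a was lower in active IKKβ P301S mice (240 and 315 CPM) than in knockout P301S mice (499 and 407 CPM), by 0.74 on the log2 scale (log2 fold change -0.74, SE 0.30). Both active mice lay below both knockout mice, but the adjusted p over all genes by edgeR's quasi-likelihood test was 0.275, so Cacna1a was not called, where 1.74% of the genes tested were. The call moved with the processing. With doublets kept the difference was smaller and with DESeq2 it was similar in size, and neither gave a call (values in the last section). Without a filter on low counts the adjusted p was 0.00451 (log2 fold change -0.72), and without P301S mouse 3, which is in neither group but adds to the shared spread, 0.0138 (-0.75). The groups also came from different lines and differed in age, and with the line or the age as a covariate the adjusted p was 0.0645 (-1.37) and 0.588 (-1.12). The neuronal transcripts in these nuclei summed to a mean of 27756 CPM in knockout and 22244 CPM in active mice, and with their level as a covariate the log2 fold change of Cacna1a was -1.12 (adjusted p = 0.187). The median log2 fold change over the 7 members tested was -0.36, beside 0.00 over all genes. The lowest adjusted p among them was that of Cacna1e (log2 fold change -0.52, SE 0.17, adjusted p by edgeR 0.134).

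Within each mouse, microglia-like nuclei rich in transcripts of the disease-associated state held more Cacna1a. Nuclei thinned to 1000 UMIs were divided at 6 UMIs summed over 23 such genes, the 95th percentile of the non-transgenic nuclei, ties at this level included. Cacna1a was higher in the nuclei above this level in 11 of 11 mice, although in 4 of them (non-transgenic mice 1, 3 and 4 and knockout mouse 2) only 5 to 9 nuclei with 3 to 6 Cacna1a UMIs lay above it. P301S mouse 3 had the largest share of such nuclei, 28.3%, and Cacna1a stood at 1608 CPM in these 204 nuclei and at 846 CPM in the other 518. The nuclei at or below the level in this 1 mouse held more Cacna1a than the whole microglia-like sum of any other mouse. P301S mouse 3 came from the active IKKβ line, at 10.75 months. P301S mice 1 and 2 came from the floxed Ikbkb line, at 9.15 and 10.03 months. What sets P301S mouse 3 apart was not tested. The share above the level was 1.51% to 5.21% in non-transgenic mice and 6.75% and 10.8% in the other P301S mice. It was 12.3% and 3.19% in knockout P301S mice and 5.09% and 13.2% in active IKKβ P301S mice. In knockout mouse 1 the nuclei above held 768 CPM against 434 CPM, and in active mouse 2, 538 against 293 CPM. The summed neuronal transcripts were lower in the nuclei above the level in 9 of the 11 mice. Of the 480 nuclei above the level, 126 lay 1 UMI above it, and a further 165 nuclei lay at it. The split uses the nuclei that led to the choice of Cacna1a, so it is a description and lends that choice no support. How many of all genes were higher above the level in 11 of 11 mice was not computed. Cacna1d was not higher in each mouse, with 533 above the level against 538 CPM in non-transgenic mouse 2.

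The remaining members of microglia-like nuclei were tested against P301S mice. In knockout P301S mice Cacna1e stood at 239 and 251 CPM, above all 3 P301S mice at 156 to 191 CPM, with a log2 fold change of 0.51 (SE 0.16; adjusted p by edgeR 0.426). The active IKKβ P301S mice, at 164 and 183 CPM, lay within the P301S range. For Cacna1b, Cacna1c and Cacna1d the knockout log2 fold changes were 0.42, 0.33 and -0.18, and the active ones 0.03, 0.03 and 0.10. Cacna1h did not reach the count needed for a test there.

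Cacna1a in microglia-like nuclei, given above without a test, is left out of the counts against P301S mice that follow. In the knockout contrast, 46 pairs of member and type were tested and 0 were called by edgeR or by DESeq2 (0.00396% of all such tests over genes were), while 15 had an unadjusted p under 0.05 by edgeR, all higher in knockout mice, and 15 by DESeq2. Many genes were under 0.05 by edgeR in this contrast, 1649 of 12951 tested in oligodendrocyte-like nuclei, 1547 of 17897 in excitatory neuron-like nuclei and 809 to 1247 in each of the other 4 types. Of the 15 pairs by edgeR, 7 lay in oligodendrocyte-like nuclei, where the median log2 fold change over the 8 members was 0.49 beside 0.00 over all genes. Cacna1a stood there at 220 and 216 CPM in knockout mice against 161, 153 and 144 CPM in P301S mice (log2 fold change 0.51, SE 0.17, adjusted p = 0.292). Cacna1d stood at 124 and 115 against 87.0, 92.6 and 78.2 CPM (0.47, adjusted p = 0.289) and Cacna1g at 14.0 and 13.5 against 8.36, 8.78 and 7.64 CPM (0.73, SE 0.22, adjusted p = 0.288). For each of the 8 members, these 3 included, the knockout and P301S mice did not overlap. The share of all genes without such overlap was not computed, so this is not read as particular to the members. In Cacna1a, however, the knockout mice overlapped with non-transgenic mice (highest 219 CPM) and with active IKKβ P301S mice (highest 223 CPM). In Cacna1d the knockout mice overlapped with non-transgenic mice (highest 121 CPM) and lay above the active mice (highest 114 CPM). Of these 3 genes, only in Cacna1g did the knockout mice lie above all other groups. Cacna1i did so too, with a lowest knockout mouse of 14.2 CPM against at most 11.7 CPM elsewhere. So did Cacna1b, narrowly, at 70.35 against at most 70.25 CPM. In Cacna1c, Cacna1e and Cacna1h the knockout mice overlapped with non-transgenic mice. Without the filter on low counts, which brings more genes into the fit, 3 of the pairs were called by edgeR, Cacna1a in astrocyte-like (adjusted p = 0.00044) and oligodendrocyte-like nuclei (0.0055) and Cacna1d in oligodendrocyte-like nuclei (0.0329).

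The summed neuronal transcripts were set beside these values. In oligodendrocyte-like nuclei the 20 neuronal transcripts summed to 26014 and 26241 CPM in knockout mice against 18982 to 24610 CPM in P301S mice. Non-transgenic mice reached 27572 CPM there. In oligodendrocyte precursor-like nuclei knockout (45410 to 46843 CPM) and P301S mice (43816 to 46510 CPM) overlapped. What links these transcripts to the members was not tested. With the sum of these transcripts as a covariate, the median log2 fold change fell to 0.18 in oligodendrocyte-like nuclei. There 0 of the 8 members had an unadjusted p under 0.05 by edgeR. Over all types 5 of 46 were under 0.05, of which 4 were Cacna1a in astrocyte-like, excitatory and inhibitory neuron-like and oligodendrocyte precursor-like nuclei and 1 was Cacna1h in inhibitory neuron-like nuclei. With age as a covariate, the knockout mice being the youngest group, 1 of 46 was under 0.05, Cacna1g in oligodendrocyte precursor-like nuclei, which was not among the 15. With the breeding line as a covariate 19 of 46 were under 0.05. The adjusted p was 0.144 or higher in each of these 3 fits.

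Outside oligodendrocyte-like nuclei, Cacna1a had an unadjusted p under 0.05 in 4 of the types in the knockout contrast. Its log2 fold change was 0.74 in astrocyte-like nuclei (SE 0.23, adjusted p = 0.473), 0.35 in oligodendrocyte precursor-like nuclei (adjusted p = 0.403), and 0.26 in both excitatory (SE 0.11, adjusted p = 0.557) and inhibitory neuron-like nuclei (adjusted p = 0.444). In excitatory neuron-like nuclei Cacna1a averaged 1046 CPM without the transgene, 1047 CPM in P301S mice, 1233 CPM in the knockout and 1133 CPM in the active group, and non-transgenic mouse 4 stood at 1215 CPM. Cacna1h in inhibitory neuron-like nuclei had 0.55, and Cacna1c and Cacna1e in astrocyte-like nuclei 0.45 and 0.42.

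In the active IKKβ contrast 0 of 46 pairs were called by edgeR or DESeq2 (0.181% of all such tests were), and 3 had an unadjusted p under 0.05 with either tool. These were Cacna1a in astrocyte-like nuclei (log2 fold change 0.53, edgeR adjusted p = 0.933), Cacna1a in inhibitory neuron-like nuclei (0.24, adjusted p = 0.643) and Cacna1g in oligodendrocyte precursor-like nuclei (0.84, SE 0.29, adjusted p = 0.922). The knockout and active contrasts share the P301S mice, so their values are given side by side and not compared.

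**Figure D5:**
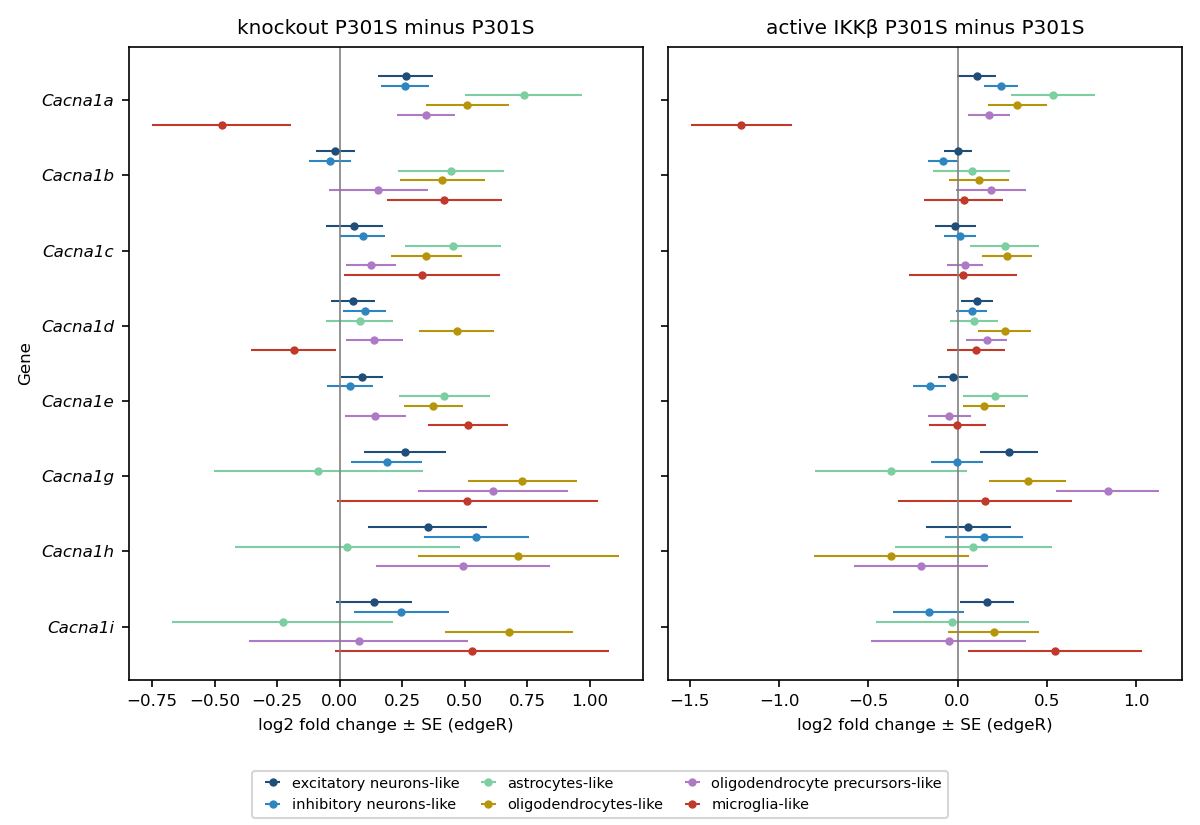
Log2 fold change with its standard error (edgeR) of each alpha1 gene in 6 broad types, for knockout P301S minus P301S mice on the left and active IKKβ P301S minus P301S mice on the right, coloured by type. No point is called at an adjusted p under 0.05 among the 46 tested pairs of each contrast, and Cacna1a in microglia-like nuclei is drawn as a description only.

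Outside microglia-like nuclei no member was called for the tau transgene. In the 5 other broad types, P301S against non-transgenic mice gave 0 of 40 members called (0.015% of all such tests were) by edgeR and by DESeq2, and 1 with an unadjusted p under 0.05 with each tool. That was Cacna1e in oligodendrocyte-like nuclei, lower in P301S mice at -0.30 on the log2 scale (SE 0.10; adjusted p by edgeR 0.916). All 7 mice with the transgene against the 4 without gave 0 of 40 called by either tool (0.018% of all such tests were), with 1 unadjusted p under 0.05 by edgeR and 0 by DESeq2. In the 15 neuronal sub-clusters, 114 of 120 pairs of member and sub-cluster passed the filter on low counts. Of these, 0 were called by edgeR or DESeq2 (0.0101% of all such tests were), and 0 had an unadjusted p under 0.05 by either tool. The log2 fold change of Cacna1a over these sub-clusters ran from -0.33 to 0.07 with a median of -0.04, and that of Cacna1b from -0.00 to 0.16. The T-type genes ran wider, from -0.59 to 0.38 for Cacna1g, from -0.71 to 0.22 for Cacna1h and from -0.32 to 0.42 for Cacna1i.

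The auxiliary subunits also differed between types. Of the beta subunits, Cacnb2 was highest in striatal projection-like neurons (3078 ± 604 CPM) and stood at 970 CPM in microglia-like nuclei, and Cacnb4 was highest in near-projecting-like neurons (2092 ± 134 CPM). Of the alpha2delta subunits, Cacna2d3 stood at 4515 ± 277 CPM in striatal projection-like neurons and at 78.5 CPM in layer 6 CT-like neurons. Cacna2d1 stood at 1524 ± 196 CPM in Lamp5-like interneurons and at 61.9 CPM in Pvalb-like interneurons, where Cacna2d2 was highest (325 ± 46.9 CPM). The gamma family, which in brain mostly serves AMPA receptors, peaked apart, with Cacng4 at 1130 ± 222 CPM in oligodendrocyte precursor-like nuclei, Cacng3 at 501 ± 44.2 CPM in upper-layer-like sub-cluster 2 and Cacng2 at 363 ± 61.3 CPM in Pvalb-like interneurons.

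Among 89 partner genes on 10 lists (auxiliary subunits, presynaptic scaffold, calcium release, pumps, sensors, calcium-activated potassium channels and regulators), 65 were tested in microglia-like nuclei. In active IKKβ P301S against P301S mice 0 rose and 1 fell, a share near that of all genes tested, of which 1.48% were called. By edgeR 6 of the 65 had an unadjusted p under 0.05, beside 777 of all 9008 genes tested. DESeq2 called 1, with 4 under 0.05. The gene was Kcnma1, which encodes the large-conductance potassium channel that calcium opens. It stood at 724, 690, 745 and 771 CPM in non-transgenic mice, 798, 779 and 829 CPM in P301S mice, 812 and 726 CPM in knockout mice and 508 and 600 CPM in active mice, so the active mice lay below all others. Against P301S mice it fell by 0.55 on the log2 scale (SE 0.13; adjusted p by edgeR 0.0335). The call was lost with the breeding line as a covariate (log2 fold change -0.59, adjusted p = 0.0612), with doublets kept (log2 fold change -0.16, adjusted p = 0.851), and without either active mouse, P301S mouse 1 or 2, or non-transgenic mouse 1 (-0.67 to -0.43, adjusted p 0.0503 to 0.402).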

How the data were processed

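Nuclei from the cortex of 11 mice were measured by 10x 3′ single-nucleus RNA-seq. Per the labels and methods, the authors processed reads with Cell Ranger 3.1.0 (mm10, unspliced RNA included) and used Seurat 3.0; they deposited raw UMI counts per gene and barcode, which were used here as counts, with neither normalization nor pooling. The counting strand is not given in the sources used here. No other samples or columns were used.

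Barcodes between 300 and 8000 genes whose mitochondrial share did not exceed 5% were kept (112539 of 114118 barcodes; 23 had too many genes and 1556 too high a mitochondrial share). Doublets were called per library from simulated doublets at 0.8% per 1000 barcodes (9474 nuclei, 8.42%) and removed; DoubletFinder and MAST, used in the study, were not run, so the nuclei left out and the cluster names can differ. Counts scaled to 10000 per nucleus, 2000 variable genes (97 calcium channel and partner genes left out), 15 principal components and 20 neighbours gave 19 Leiden clusters at resolution 0.1, of which 4 (15426 nuclei) stayed unnamed; 68393 neuronal nuclei gave 28 sub-clusters (20 components, resolution 0.4). A name needed at least 3 raised markers, and the 15 named sub-clusters of 500 or more nuclei were described; 8 of that size (22902 nuclei) stayed unnamed and 5 were smaller.

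Counts were summed per mouse and type (at least 10 nuclei). Levels are CPM of these sums. Tests were edgeR quasi-likelihood tests (TMM, filterByExpr, 1 term per genotype, all 11 mice), adjusted by Benjamini-Hochberg over all genes of a fit and a gene was called below an adjusted p of 0.05 if its log2 fold change exceeded 0.1 in size. Where groups have 2 mice, their spread is taken from all groups. The study's methods call the controls littermates, but the labels do not say which mice share a litter, so p-values measure only the spread between these libraries. Some mice of 1 line had equal ages in different groups. These were non-transgenic mouse 3 and active mouse 1 (10.85 months), non-transgenic mouse 4 and active mouse 2 (9.8), P301S mouse 1 and knockout mouse 2 (9.15), and non-transgenic mice 1 and 2 and P301S mouse 2 (10.03). Coordinates and sequences are from GENCODE M21 (GRCm38; 31011 of 31053 genes matched). Shares of nuclei cover counting error and free RNA alike. The fitting step was tested on simulated counts. The members, lists, markers and tests were chosen with earlier results of these data known. All 8 members are named, partner genes where called, and the genes with the highest Pearson r as most alike. Alternatives were DESeq2 (tool and size factors), no low-count filter, line, age, neuronal list or replicate block as a term, doublets kept, resolution 0.2 and each mouse left out. Deviations of mice of the same line and title number correlated between -0.11 and 0.28, and those of other pairs between -0.26 and 0.25. These values do not settle whether the title numbers pair the mice, since in groups of 2 mice the deviations mirror each other. Versions were Python 3.11.15, scikit-learn 1.9.0, leidenalg 0.10.2, R 4.3.3, edgeR 4.0.16 and DESeq2 1.42.0.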

Additional observations from a re-analysis of the deposited data

Results flagged for a closer look

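In 9 of the 48 groups of 4 non-transgenic mice (8 members in 6 broad types), the highest or lowest mouse lay apart from the other 3 by more than Dixon's 95% critical share of the range. A single group passes this by chance about 1 time in 20. The 48 groups hold the same 4 mice and are not independent, so their count was not set against chance. In 8 of the 9 the mouse apart was non-transgenic mouse 4, always as the highest. In excitatory neuron-like nuclei it held 1215 CPM of Cacna1a, 70.1 CPM of Cacna1g, 24.1 CPM of Cacna1h and 108 CPM of Cacna1i. For Cacna1c it held 114 CPM in astrocyte-like, 252 CPM in oligodendrocyte-like and 954 CPM in oligodendrocyte precursor-like nuclei. Its Cacna1h level in microglia-like nuclei was 16.6 CPM. The ninth was non-transgenic mouse 1, lowest for Cacna1h in oligodendrocyte precursor-like nuclei at 6.45 CPM.

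Neuronal sub-cluster 17, which stayed unnamed and entered none of the sub-cluster tests above, held more Cacna1c (4351 CPM) and more Cacna1d (1467 CPM) than any of the 22 types described. Its leading genes included Lgr6 and Cpa6, and it held 1224 nuclei, 31.9% of them from non-transgenic mouse 4. Over the 7 mice with at least 10 of its nuclei, Cacna1c ran from 3761 to 4828 CPM and Cacna1d from 1041 to 1603 CPM.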

How the results depend on the processing

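The member counts of 0 for P301S against non-transgenic mice, for all transgenic mice and for active IKKβ P301S mice stayed at 0 under each alternative run. The knockout count rose to 3 without the low-count filter and was 0 under the other 18. For Cacna1a in microglia-like nuclei, active against knockout P301S mice, the log2 fold change was below 0 throughout. It was -0.72 with a call without the low-count filter, -0.43 with doublets kept, -0.73 with DESeq2 (adjusted p = 0.797), and -0.94 to -0.56 with each mouse left out, called at -0.75 without P301S mouse 3. The described change of Cacna1a in P301S mice ran from 0.58 to 1.44 with each mouse left out, 0.58 without P301S mouse 3. For active IKKβ P301S against P301S mice it ran from -1.43 to -0.57 and was -0.67 with doublets kept.

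With the replicate block, each member count stayed at 0 and the partner count at 1, and the log2 fold change of Cacna1a between active and knockout mice was -1.38 (adjusted p = 0.0841), while Kcnma1 was at -0.64 (adjusted p = 0.0398). Whether the title numbers behind the block pair the mice was not settled, so this fit is given only here. The partner count, 1 in active IKKβ P301S mice, was 4 without the low-count filter (Cacnb2, Slc24a3 and Stac2 beside Kcnma1), 0 with the line as a covariate, 0 with doublets kept, and 0 to 2 with each mouse left out: 0 without non-transgenic mouse 1, P301S mouse 1 or P301S mouse 2, 1 without active mouse 1 (Slc24a3 and not Kcnma1) or active mouse 2 (Cacnb2 and not Kcnma1), and 2 without P301S mouse 3 (Slc24a3 beside Kcnma1) or either knockout mouse (Cacnb2 beside Kcnma1). Kcnma1 itself ran from -0.67 to -0.43 with each mouse left out.

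At resolution 0.2, 72 of the 80 levels in broad types moved by less than their SD, and 8 moved by more. Among these, Cacna1g in the broad cluster of striatal projection neurons went from 10.1 to 4.26 CPM, and in inhibitory neuron-like nuclei Cacna1h went from 9.66 to 14.2 CPM and Cacna1c from 1050 to 1318 CPM. Doublets kept was not run for the neuronal sub-clusters. With 2 mice in the knockout and active groups and 1 to 24 UMIs per mouse for the T-type genes in microglia-like nuclei, values of these rest on few counts, and what size of difference could be seen was not tested.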
